A study of Mus musculus with 2 samples.

Results

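The arteriolar and endosteal fibroblast-like cells were taken from 2 single-cell libraries of mouse long bone, and they numbered 423 of 4976 cells. A cell was a member when 3 conditions held. The mean deposited value of Clec3b, Col14a1 and Mfap5 had to be the highest among 6 sets of 3 genes, which stood for Cxcl12-abundant reticular (CAR) cells, bone and cartilage fibroblasts, arteriolar and endosteal fibroblasts, osteoblasts, chondrocytes and endothelium. At least 2 of the 3 genes had to be above 0, and fewer than 3 of 6 genes of a lining-like population could be. The rule read the same measured values that are described here, so the levels of its genes are a description of the choice and not a finding. There were 278 members in the Veh library and 145 in the Doxo library.

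The study asked which cells of bone respond to chemotherapy. Both libraries came from femurs and tibias of 12-week-old female mice, one after vehicle (Veh) and one after doxorubicin (Doxo, 10 mg/kg), with bones taken 96 h after treatment. Collagenase released the cells, and cells with CD45, CD71 or Ter119 on their surface, and per the labels also those with CD31, were depleted before capture with the 10x Genomics 3′ v3 chemistry. The number of mice behind each library was not given in the sources used here, and each condition had 1 library, so treatment and library cannot be told apart and no difference below has a test. The same 4 cell barcodes occurred in both libraries.

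Fibroblasts of this kind lie around arteries and in the connective tissue that lines bone, outside the sinusoidal network where CAR cells are found. They resemble the adventitial fibroblasts of other organs, which carry Cd34 and Ly6a (Sca-1) and build a matrix of collagens, microfibrils and elastic fibres. In other tissues a subset marked by Pi16 and Dpp4 is regarded as a reserve of less specialised fibroblasts.

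Each library held 2488 cells. The members were 11.2% of the Veh library (exact binomial 95% interval 9.96 to 12.5%) and 5.83% of the Doxo library (4.94 to 6.82%). Clec3b, one of the 3 genes of the rule, was itself lower in Doxo, so the shares are not compared as a result. A median of 9388 UMIs (unique molecular identifiers, the transcripts counted) and 2904 genes was found per member in Veh, against 7179 UMIs and 2421 genes in Doxo. Mitochondrial transcripts took a median of 2.25% and 2.85% of a member's UMIs. The sums over all members, on which every ratio below rests, came to 2860005 UMIs in Veh and 1192188 in Doxo.

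All 3 genes of the rule were above 0 in 197 Veh and 91 Doxo members, and the remaining 81 and 54 had 2 of them. The margin between a member's set mean and the highest other set mean, in units of the deposited log2 values, had a median of 3.15 in Veh and 3.21 in Doxo. It was under 0.5 in 30 Veh and 12 Doxo members, with the closest at 0.0027 and 0.0187. Outside the rule, 29 cells of each library came within 0.5 of it, the nearest at -0.0017 and -0.010. In addition, 109 Veh and 45 Doxo members had at least 2 of the 3 genes of another set above 0, most often the CAR set (64 and 28 members) or the bone and cartilage fibroblast set (59 and 20), and no member had 2 endothelial genes.

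The label was checked on 7 listed markers, 3 of which the rule read. Clec3b, one of those 3, encodes tetranectin, a secreted plasminogen-binding protein (chr9:123150946-123157432 on GRCm38). It stood at 1375 CPM (UMIs of the gene per 1000000 UMIs of the class) in Veh and 809 CPM in Doxo. Col14a1 (chr15:55307750-55520803), a collagen that coats the surface of fibrils, stood at 681 and 528 CPM. Mfap5 (chr6:122505845-122529290), a glycoprotein of microfibrils, stood at 701 and 744 CPM. The levels of these 3 were set by the choice of cells and say nothing of the label. Of the 4 listed markers that the rule did not read, Apod, Dpt and Ly6a had their highest level in the members in both libraries, and Cd34 did so in Doxo alone.

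Apod (chr16:31296192-31314808), a lipid-carrying lipocalin, had 1077 CPM in Veh and 1461 CPM in Doxo. The level of Dpt (chr1:164796644-164824266), whose product dermatopontin binds decorin and collagen, was 637 and 494 CPM. These levels were 4.01 and 7.24 times those of the next class for Apod, and 11.2 and 7.97 times for Dpt. Cd34 (chr1:194938819-194961279), a sialomucin of the cell surface, had 454 and 465 CPM and was the exception to the order. Endothelial-like cells had 542 CPM of Cd34 in Veh and 443 CPM in Doxo, so that class was higher in Veh and slightly lower in Doxo. Ly6a (chr15:74994877-74998031) had 1489 and 1553 CPM, against 883 and 939 CPM in endothelial-like cells.

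**Figure D1:**
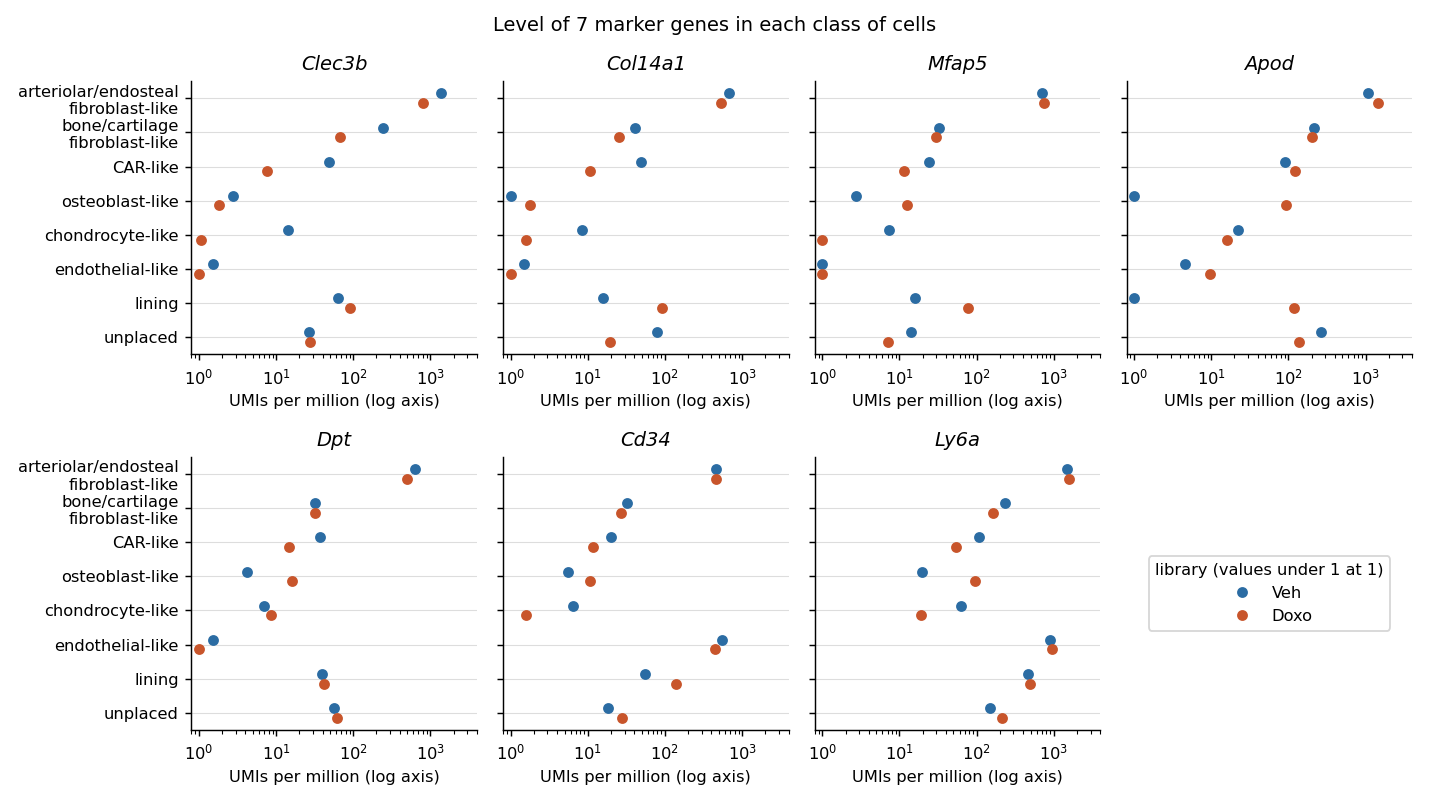
Level of the 7 listed markers (horizontal log axis, CPM) in each class of cells (rows) of the Veh library (blue) and the Doxo library (orange), with values under 1 drawn at 1. The top row, the arteriolar and endosteal fibroblast-like cells, holds the highest level in both libraries for every marker except Cd34, where endothelial-like cells stood at 542 CPM in Veh.

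Transcripts outside cells add a background to every droplet, which can be read from a class that should lack a gene. Dpt, which the rule did not read, had a UMI in 86.7% of Veh members and 80.0% of Doxo members. Among endothelial-like cells it had one in 1.04% of the Veh cells (median depth 6474 UMIs) and in 0 of the 59 Doxo cells (median depth 4677), the latter allowing up to 5.08% of cells. The depth of the endothelial-like cells was lower than that of the members. Dpt does not stand for every gene. Bglap2, of the osteoblast set, had a UMI in 30.2% of Veh and 39.0% of Doxo endothelial-like cells, and in 42.1% and 44.8% of members. A UMI of 6 erythroid genes was found in 80.2% of Veh members and 6.21% of Doxo members.

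Defining markers of some other cell types were at 0 or low, while the summed markers of some related skeletal cells were not. Cldn5, of endothelial tight junctions, had no UMI in any member, nor did Sox10 and Foxd3 of Schwann cells, or Plin1 and Cidec of adipocytes. These were picked from longer lists, in which other genes had UMIs. The 8 nerve markers summed to 47.6 CPM in Veh and 41.1 CPM in Doxo, with a UMI in 26.6% and 20.7% of members. For the 6 adipocyte markers found in the data the sums were 21.3 and 20.1 CPM, with a UMI in 10.1% and 13.8%. The 8 endothelial markers together came to 31.8 CPM in Veh and 21.8 CPM in Doxo, and 8 markers of pericytes and smooth muscle to 134 and 125 CPM. The 8 immune markers summed to 55.9 and 48.7 CPM in the members, against 64.7 and 36.8 CPM in all other cells. For 6 perineurial markers the sums were 88.1 and 122 CPM, against 141 and 166 CPM, with a UMI in 44.6% of Veh and 40.7% of Doxo members. The 8 markers of bone and cartilage fibroblasts summed to 8550 and 6091 CPM in the members, against 38904 and 40332 CPM in all other cells. For the 8 CAR markers the sums were 966 and 986 CPM, against 4979 and 8443 CPM. The 8 osteoblast markers summed to 4310 and 3657 CPM, against 18195 and 13456 CPM, with a UMI in 100% of Veh and 99.3% of Doxo members. That list includes Col1a1, whose level is given with the collagens below, and Spp1, with 1338 of 1448 Doxo UMIs in 1 cell. Of its other markers, Ifitm5 had 3.15 and 1.68 CPM, Dmp1 1.40 and 2.52 CPM and Bglap2 87.1 and 112 CPM. The 6 tendon markers summed to 4333 and 2496 CPM, against 8767 and 6021 CPM. Comp and Thbs4 are counted both there and among the bone and cartilage fibroblast markers. The 5 megakaryocyte markers were above other cells, at 377 and 207 CPM against 69.7 and 23.5 CPM, and as many as 777 of their UMIs in Veh and 140 in Doxo came from 1 cell. The part of such transcripts in the results below was not tested, apart from the values given without members that carry a second set.

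Beyond the rule, several genes had much higher levels in the members than in all other cells of the same library pooled. By the ratio to all other cells, taking the lower of the 2 libraries and genes of at least 100 CPM, the leading genes were as follows. Scg3, a granin of secretory granules better known from neurons and endocrine cells, was first, with log2 ratios to other cells of 7.29 in Veh and 6.18 in Doxo. Hmcn2 and Hmcn1, the hemicentins of basement membranes and fibre junctions, had 5.71 and 5.59, and 3.36 and 3.31. Stmn2, a microtubule-destabilising protein also known from neurons, had 4.27 and 6.28. Single classes could come closer than the pool, since endothelial-like cells had 81.3 CPM of Hmcn1 in Veh and 84.8 CPM in Doxo against 115 and 139 CPM in the members, and 60.3 CPM of Stmn2 in Veh against 118 CPM. Nor did every member have a UMI of them, with Scg3 in 40.6% of Veh and 37.2% of Doxo members, Stmn2 in 21.6% and 20.0%, and Dkk2, described next, in 17.6% and 14.5%. These ratios describe cells that were selected on correlated genes, and none was tested.

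Several of these genes act at the cell surface or on growth factor signals. Dkk2, a secreted inhibitor of WNT signalling, had log2 ratios to other cells of 4.44 and 4.97, and Gpc3, a heparan sulphate proteoglycan that binds WNT and hedgehog ligands, had 4.32 and 4.97. Cd248 (endosialin) had 4.08 and 4.61, Scara5, a ferritin receptor, 3.82 and 4.02, and Thy1 3.26 and 4.56. Ccn3, a matricellular protein, had 3.73 and 4.24. For Cd248 the lining-like class, of 6 Veh and 10 Doxo cells, came closer than the pool. It had 102 and 146 CPM, against 158 and 252 CPM in the members. The rest of the 15 by this rule were Dpt, Cd34, the interferon-inducible Ifi207, the RNA-binding protein gene Celf2 and the actin-capping protein gene Tmod2.

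The libraries are compared by log2 ratios, Doxo over Veh. Each sum was raised by 0.5 UMI for the ratio, and the interval beside it is an exact conditional binomial one at 95%. The intervals cover counting error only and not the variation between cells, between mice or between libraries. Over 7637 genes with at least 50 UMIs the median log2 ratio was -0.02. A ratio past 2-fold was seen for 76 genes higher in Doxo (0.995% of 7637) and 139 genes lower in Doxo (1.82%). Those 2 shares are the background for the counts of members past 2-fold in each gene list below. Of the 11519 genes with at least 10 UMIs, on which the other counts of each list rest, 48.2% were higher and 51.8% lower, and the interval lay above 0 for 7.5% and below 0 for 8.15%. Without the one cell per library that held most of a gene's UMIs, 59 of the 76 and 127 of the 139 remained past 2-fold. The interval left out 0 for all 76 and all 139. Among them, 7 and 8 genes had over 50% of their UMIs, in the library where they were higher, in 1 cell.

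Among the listed markers, Clec3b was lower in Doxo, with 3933 UMIs in Veh and 965 in Doxo (log2 ratio -0.76, interval -0.87 to -0.66). Its ratio was -1.84 in bone and cartilage fibroblast-like cells and -2.64 in CAR-like cells. The rule read Clec3b, and those 2 classes leave out cells in which the mean of its set was highest. These ratios, like those of Col14a1 and Mfap5 in the members, therefore describe chosen cells and are not a finding. Apod was higher (0.44, interval 0.35 to 0.53), and Col14a1 and Dpt were both lower (-0.37 each). The intervals of Mfap5 (0.09), Cd34 (0.03) and Ly6a (0.06) included 0. Of the other genes high in the members, Ccn3 was higher, at 519 CPM in Veh and 900 CPM in Doxo (0.79, interval 0.68 to 0.91). Cd248 went from 158 to 252 CPM and Scara5 from 183 to 292 CPM, each with a log2 ratio of 0.68. Scg3 was lower, at 331 and 219 CPM (-0.59, interval -0.80 to -0.40).

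Immediate early genes were higher in Doxo members. These encode transcription factors and feedback regulators that are transcribed within minutes of a stimulus. The 25 listed genes summed to 16288 CPM in Veh and 23403 CPM in Doxo, and 23 of the 25 were higher, with a median log2 ratio of 0.55. For comparison, 48.2% of all genes were higher and their median was -0.02. The interval lay above 0 for 19 genes, beside 7.5% of all genes, and below 0 for 2, Jund (-0.15) and Ier5 (-0.54). Past 2-fold were 4 of the 25, Nr4a1, Zfp36, Nr4a2 and Klf2, beside the background of 0.995%.

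Nr4a1, an orphan nuclear receptor, had 535 UMIs in Veh and 526 in Doxo, which is 187 and 441 CPM (log2 ratio 1.24, interval 1.06 to 1.41). Its paralogue Nr4a2 had 88.8 and 181 CPM (1.03, 0.76 to 1.30). Zfp36 encodes tristetraprolin, which binds and destabilises cytokine mRNAs, and it stood at 558 and 1288 CPM (1.21, 1.11 to 1.31). Klf2, a zinc-finger factor, had 435 and 877 CPM (1.01, 0.89 to 1.13). All 4 of these ratios moved little without the top cell of each library, the lowest being that of Nr4a2 (0.96). That of Nr4a1 was under 2-fold when a cluster of all cells replaced the rule (0.89), and also once cells were thinned to 2000 UMIs (0.81).

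The most abundant members of the list differed by less. Fos, which pairs with Jun factors in the AP-1 dimer, had 2910 CPM in Veh and 4473 CPM in Doxo (0.62, interval 0.57 to 0.67). Egr1, a zinc-finger factor, had 1318 and 2131 CPM (0.69). Atf3, a stress-induced bZIP factor, had 588 and 975 CPM (0.73), and the phosphatase gene Dusp1 473 and 828 CPM (0.81). Jun itself was nearly level, at 1691 and 1761 CPM (0.06, interval -0.02 to 0.13). In the same 2 libraries the median of the list was 0.54 in bone and cartilage fibroblast-like cells and -0.29 in CAR-like cells.

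The upstream 250 bases of the 4 genes past 2-fold are shown because immediate early genes are commonly controlled by short promoter elements. They come from the RefSeq promoter table on GRCm38.p6. Capitals mark TGACG on either strand (CGTCA on the printed strand when the match is on the other), the core of the cAMP response element, and, in Zfp36, the CArG box bound by serum response factor.
Nr4a1, chr15:101266596-101266845, plus strand: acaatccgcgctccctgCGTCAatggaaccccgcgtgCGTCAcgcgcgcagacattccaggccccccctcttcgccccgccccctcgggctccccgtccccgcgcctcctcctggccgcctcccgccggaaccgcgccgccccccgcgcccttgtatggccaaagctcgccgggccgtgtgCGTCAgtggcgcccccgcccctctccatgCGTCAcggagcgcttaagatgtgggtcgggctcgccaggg
Nr4a2, chr2:57124004-57124253, minus strand: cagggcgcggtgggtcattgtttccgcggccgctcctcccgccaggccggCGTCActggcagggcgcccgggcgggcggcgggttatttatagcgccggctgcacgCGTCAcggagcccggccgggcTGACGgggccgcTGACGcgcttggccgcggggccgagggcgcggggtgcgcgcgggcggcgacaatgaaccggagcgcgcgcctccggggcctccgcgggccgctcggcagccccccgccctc
Klf2, chr8:72318812-72319061, plus strand: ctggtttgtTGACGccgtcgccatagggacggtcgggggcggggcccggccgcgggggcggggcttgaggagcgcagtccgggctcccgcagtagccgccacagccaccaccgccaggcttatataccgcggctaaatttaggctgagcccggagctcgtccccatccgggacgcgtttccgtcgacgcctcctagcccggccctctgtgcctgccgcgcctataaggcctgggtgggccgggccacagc
Zfp36, chr7:28379229-28379478, minus strand: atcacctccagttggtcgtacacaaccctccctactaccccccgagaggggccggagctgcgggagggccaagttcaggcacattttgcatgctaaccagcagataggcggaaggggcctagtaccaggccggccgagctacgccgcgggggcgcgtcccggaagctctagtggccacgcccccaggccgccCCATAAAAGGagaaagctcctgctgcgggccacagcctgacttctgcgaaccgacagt

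TGACG occurred 4 times in the Nr4a1 window, 4 times in that of Nr4a2 and 1 time in that of Klf2. The Zfp36 window held no TGACG and 1 CArG box. Across the 32851 RefSeq promoters, 17.8% held TGACG and 1.47% a CArG box. Of the 25 immediate early genes, 20 were in the table, and 12 of these held TGACG and 2 a CArG box in at least 1 promoter. These counts are of genes, whereas the shares are of promoters, with 32851 promoters for 27025 genes, so they are not directly comparable. A match is a description of the letters and not evidence of binding.

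Per cell, the immediate early genes took a median of 1.21% of UMIs in Veh members, with a lowest value of 0.0666% and a highest of 6.79%. In Doxo members the median was 1.91%, between 0.0294% and 8.97%. The 2 ranges overlapped almost wholly, and cells near 0 and above 4% were present in both libraries.

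**Figure D2:**
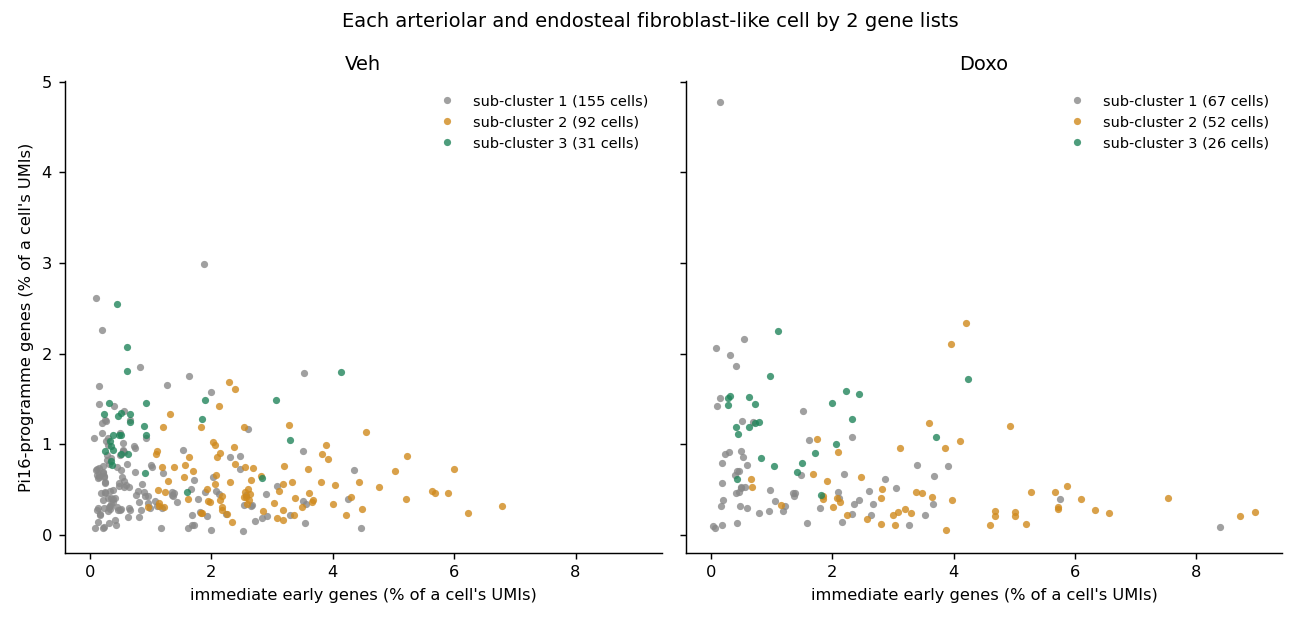
Each dot is 1 arteriolar and endosteal fibroblast-like cell of the Veh library (left) or the Doxo library (right), by the percent of its UMIs from immediate early genes (horizontal) and from Pi16-programme genes (vertical), coloured by sub-cluster. Sub-cluster 2 (92 Veh and 52 Doxo cells) extends to the right in both libraries, and the medians of all members were 1.21% in Veh and 1.91% in Doxo.

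Collagen transcripts were lower in Doxo members. The 16 listed collagen genes summed to 19182 CPM in Veh and 12030 CPM in Doxo, 14 of the 16 were lower, and the median log2 ratio was -0.39. The interval lay below 0 for 12, beside 8.15% of all genes, and above 0 for 1. Col14a1, which the rule read, is among the 16. Past 2-fold was 1 gene, Col3a1, beside the background of 1.82%.

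Col3a1 (chr1:45311538-45349706), the fibrillar collagen of vessel walls and loose connective tissue, had 18342 UMIs in Veh and 3626 in Doxo, or 6413 and 3041 CPM (log2 ratio -1.08, interval -1.13 to -1.02). Without its top cell per library the ratio was -1.07, but it was short of 2-fold without the 5% of members with most UMIs (-0.79), with thinned cells (-0.96) and with every cell weighing the same (-0.93). Col1a1 had 3631 and 2017 CPM (-0.85) and Col1a2 3796 and 2760 CPM (-0.46), the chains of type I collagen. Col5a2 (-0.75) and Col5a3 (-0.77), chains of the type V collagen that starts fibrils, and Col15a1 (-0.93), of the basement membrane zone, were lower as well. The 2 genes above 0 were Col4a2 (0.08, interval -0.11 to 0.27) and Col8a1 (0.34), and Col8a1 stood at -0.37 without its top cells. The list had a median of -0.44 in bone and cartilage fibroblast-like cells and -0.21 in CAR-like cells.

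The small leucine-rich proteoglycans, which bind collagen fibrils and set their width, were on the same side. Of 10 genes 9 were lower, with a median of -0.35, and none was past 2-fold. Decorin (Dcn) had 20784 CPM in Veh and 17568 CPM in Doxo (-0.24), lumican (Lum) 1858 and 1415 CPM (-0.39) and osteoglycin (Ogn) 612 and 368 CPM (-0.73). Podn was the one gene above 0 (0.15, interval -0.24 to 0.53).

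Genes of elastic fibres and microfibrils did not move one way. Of 20 genes 11 were higher and 9 lower, with a median of 0.05. Elastin (Eln) had 264 UMIs in Veh and 29 in Doxo (ratio -1.90, interval -2.53 to -1.37). Mfap4, a microfibril-associated protein, had 132 and 7 UMIs (-2.88), and 57.6% of the Veh UMIs lay in 2 cells. Its ratio was -0.32 in members without a second set. Efemp1, the elastic fibre protein fibulin-3, was opposite, at 61.9 CPM in Veh and 186 CPM in Doxo (1.59, 1.30 to 1.88). Fbn1, the fibrillin that forms the microfibril itself, had 619 and 908 CPM (0.55), and Ltbp4, which tethers latent TGF-beta to it, 600 and 838 CPM (0.48).

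**Figure D3:**
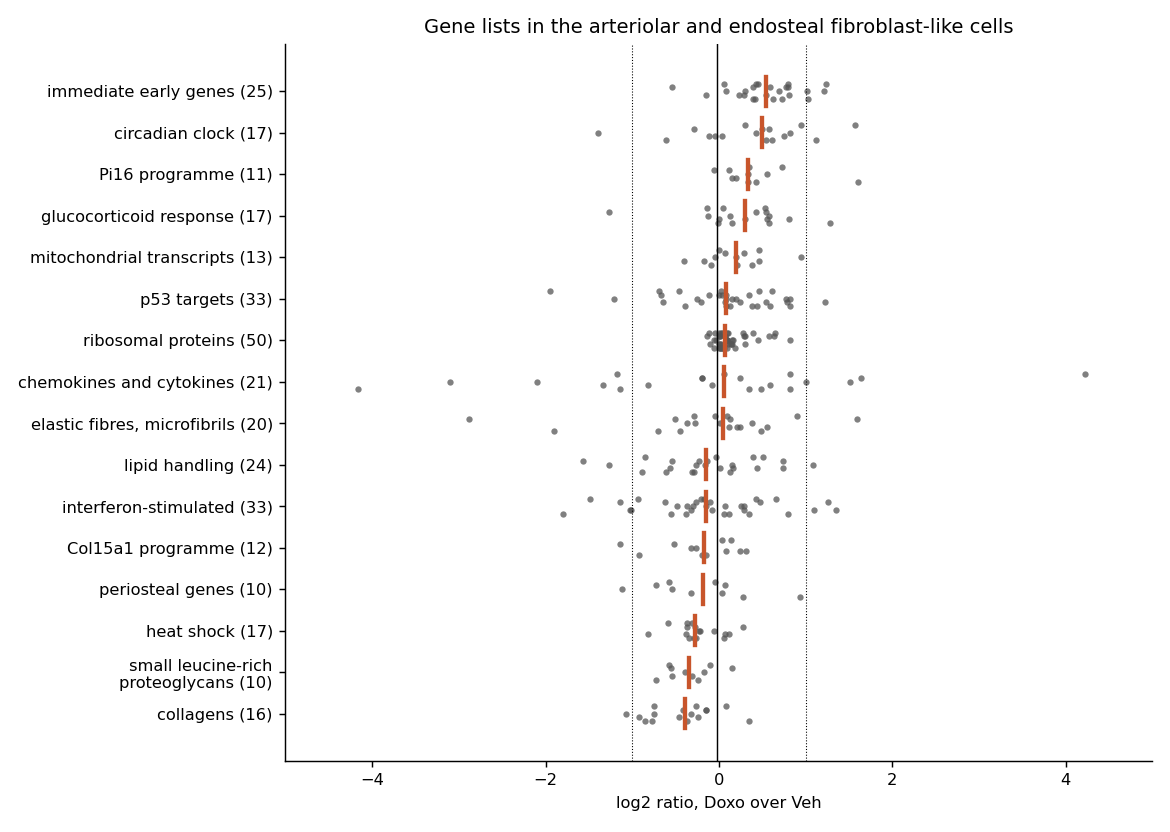
Log2 ratio of Doxo to Veh (horizontal) of every gene with at least 10 UMIs in 16 gene lists (rows, number of genes in brackets), with each gene as a dot, the list's median as an orange bar and 2-fold as dotted lines. Immediate early genes lie highest with a median of 0.55 and collagens lowest with -0.39.

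Over all members, the genes of the Pi16 programme of adventitial fibroblasts were slightly higher, but not within each sub-cluster of members. Of 11 genes 10 were higher, with a median of 0.33, and 7 had an interval above 0. Ackr3, a scavenging receptor for Cxcl12, had 284 CPM in Veh and 469 CPM in Doxo (0.72, interval 0.56 to 0.88). Sema3c, a guidance factor, had 174 and 257 CPM (0.56), and the complement-shielding Cd55 306 and 389 CPM (0.35). Efhd1, a calcium-binding protein of mitochondria, was the 1 gene past 2-fold, with 74 UMIs in Veh and 94 in Doxo (1.61, 1.15 to 2.07). Pi16 itself had 174 and 97 UMIs (0.42), of which 62.9% in Doxo lay in 2 cells, and its ratio was 0.05 without the top cell of each library. The median of the list was -0.31 in bone and cartilage fibroblast-like cells and -0.72 in CAR-like cells. With each cell thinned to 2000 UMIs the median in the members was 0.06. Within the 3 sub-clusters described at the end, 6 of 11, 2 of 10 and 7 of 11 genes were higher, with medians of 0.04, -0.36 and 0.17. Sub-cluster 3, where these genes took the largest share of UMIs, held 11.2% of Veh members (exact binomial interval 7.70 to 15.5%) and 17.9% of Doxo members (12.1 to 25.2%). These shares are not compared, and their part in the median of the list was not tested.

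Of 17 circadian clock genes 12 were higher, with a median of 0.50. Genes driven by the positive arm of the clock were higher, among them Dbp, with 110 CPM in Veh and 169 CPM in Doxo (0.61, interval 0.35 to 0.87), Tef (0.75), Nr1d2 (0.94) and Bhlhe41 (1.12, 0.66 to 1.58). Npas2, which belongs to the positive arm, had 53 and 8 UMIs (-1.39, -2.75 to -0.38), and Arntl, its partner, 71 and 19 UMIs (-0.61, -1.45 to 0.11). The hour at which the bones were taken was not given in the sources used here. The list had a median of 0.24 in bone and cartilage fibroblast-like cells and -0.15 in CAR-like cells.

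Among 17 glucocorticoid-responsive genes 13 were higher, with a median of 0.31. Fkbp5, a co-chaperone of the receptor, had 21.3 CPM in Veh and 52.0 CPM in Doxo (1.29, interval 0.75 to 1.82) and Tsc22d3, the leucine zipper GILZ, 169 and 248 CPM (0.56). Dusp1 and Per1 also belong to lists above. The 17 heat shock genes went the other way, with 13 lower and a median of -0.27. The small heat shock protein gene Cryab had the lowest ratio (-0.82), while Hspa1a had 528 and 414 CPM (-0.35) and its near-identical neighbour Hspa1b 416 and 450 CPM (0.11).

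Chemokines and cytokines were divided. Of 21 genes 11 were higher and 10 lower, with a median of 0.06. The larger differences were more often lower. Of the 16 with at least 50 UMIs, 1 was 2-fold or more higher and 5 were lower, beside the backgrounds of 0.995% and 1.82%. Il6 was among the 10 genes with the highest ratio, with 91 UMIs in Veh and 118 in Doxo, 31.8 and 99.0 CPM (log2 ratio 1.64, interval 1.23 to 2.05). It had 62 and 25 UMIs in bone and cartilage fibroblast-like cells (-1.06) and 216 and 33 in CAR-like cells (-3.01). The ratio in the members depended on which cells were taken, at 0.07 without members that carry a second set, 0.88 with a margin of at least 1 and 0.86 with a cluster in place of the rule. Cxcl1 had 866 and 1098 CPM in the members (0.34, 0.25 to 0.44), against ratios of -1.10 and -2.90 in the other 2 classes, and turned to -0.10 in the members with the cluster. Ccl2 had 378 and 530 CPM (0.49), against -2.03 and -3.99. The difference between classes was not tested.

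Other chemokines were lower in Doxo members. Ccl7 had 337 and 190 CPM (-0.82) and Cxcl14 214 and 96.5 CPM (-1.15, interval -1.45 to -0.86). The latter was short of 2-fold with a margin of at least 1 (-0.93) and without members that carry a second set (-0.46). Ccl8 had 56 and 5 UMIs (-2.10), with 55.4% of the Veh UMIs in 2 cells, and Cxcl10, an interferon-induced chemokine, 51 and 2 UMIs (-3.10, -6.49 to -1.48), which turned to 2.22 with the cluster. Cxcl12, a gene of the CAR set, had 532 and 628 CPM (0.24, and -0.21 with the cluster). The 21 UMIs of Csf2 in Veh and the 19 UMIs of Cxcl13 in Doxo each came from 1 cell.

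Interferon-stimulated genes were not shifted to one side. Of 33 genes 14 were higher, with a median of -0.15, against 35 of 36 genes and 0.78 in CAR-like cells and 6 of 33 genes and -0.39 in bone and cartilage fibroblast-like cells. Isg15, a ubiquitin-like modifier, had 87 UMIs in Veh and 10 in Doxo (ratio -1.80, interval -2.97 to -0.91), and its ratio was 1.21 in CAR-like cells. With the cluster in place of the rule it was -0.82. Ifi27l2a (143 and 152 UMIs, 1.35, and 0.80 without members that carry a second set) and Lgals3bp (29.7 and 63.7 CPM, 1.10) were higher in the members, and Irf1 had 98.3 and 171 CPM (0.80). The 33 listed p53 targets had a median of 0.09, with 23 higher. Of the 24 with at least 50 UMIs, 1 was 2-fold or more higher and 0 were lower, beside the backgrounds of 0.995% and 1.82%. In sub-clusters 1 to 3, described at the end, the medians of the list were 0.16, -0.03 and 0.31. Among the p53 targets Mdm2, which encodes the ubiquitin ligase of p53, was lower (62.2 and 39.4 CPM, -0.65, -1.15 to -0.19), and Phlda3 was higher (178 and 268 CPM, 0.59).

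Of 13 genes of growth arrest, which the study discusses, 5 were higher and 8 lower, with a median of -0.19. Cdkn1a, the p53 target that encodes p21, had 752 CPM in Veh and 793 CPM in Doxo (0.08, interval -0.03 to 0.19). Cdkn1c, which encodes p57, had 504 and 114 UMIs (-0.88), but 242 of the Veh UMIs were in 1 cell and the ratio was -0.04 without the top cells. Cdkn2a, which encodes p16, had 2 UMIs in Veh and 6 in Doxo, too few at this depth for a level. The proliferation marker Mki67 had 20 and 4 UMIs (-0.93, -3.07 to 0.52). Of the factors that regulate osteoclasts, Tnfsf11 (RANKL) had 2 and 5 UMIs and its decoy receptor Tnfrsf11b 132 and 50 (-0.13, -0.64 to 0.34).

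**Figure D4:**
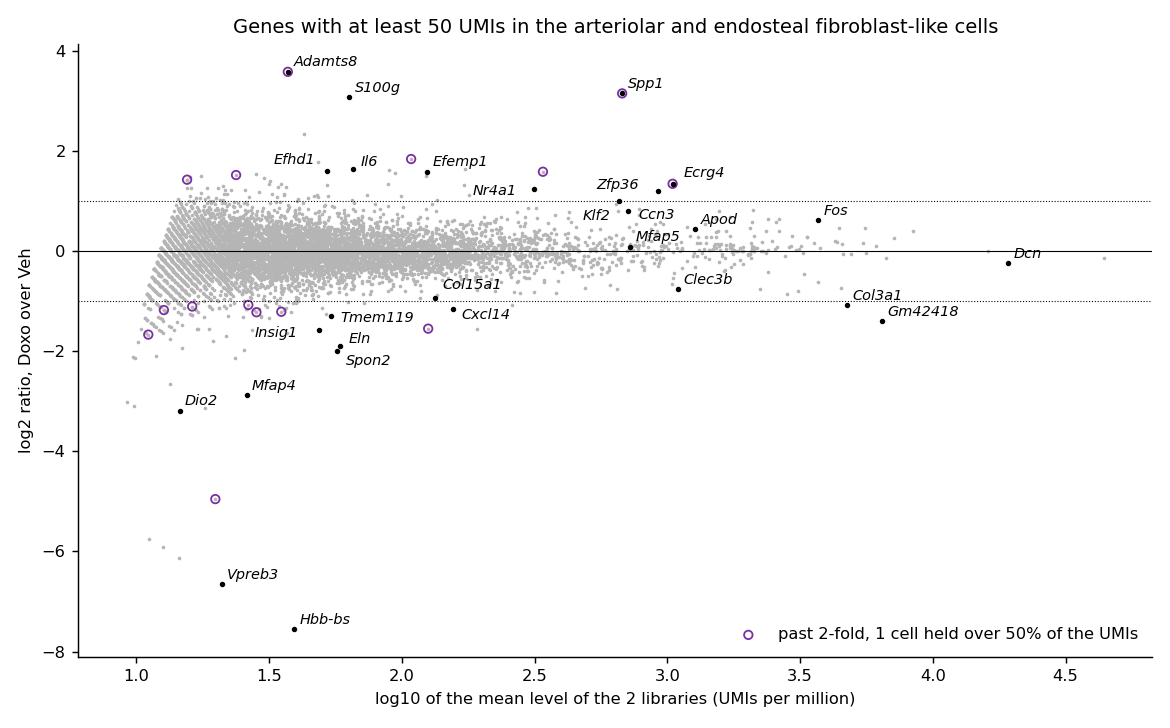
Log2 ratio of Doxo to Veh (vertical) against the log10 of the mean level of the 2 libraries (horizontal, CPM) for 7637 genes with at least 50 UMIs in the arteriolar and endosteal fibroblast-like cells, with 2-fold as dotted lines. Most genes lie near 0 (median -0.02), with 76 above and 139 below the dotted lines.

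Of the 10 genes with the highest ratio, 9 are given here, and the ratios of 6 of these moved little without the top cells. Serpina3n, a secreted protease inhibitor of the acute phase, had 43.7 CPM in Veh and 135 CPM in Doxo (1.63, interval 1.28 to 1.98), and its ratio was 1.72 in bone and cartilage fibroblast-like and 2.71 in CAR-like cells. Efemp1, Efhd1 and Il6 are given above. Tsix, antisense to Xist, and Gm26532 had 1.78 and 1.56, and their ratios in the other 2 classes lay between 1.32 and 1.52.

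The other 3 rested on single cells to a large part. All 82 Doxo UMIs of Adamts8, a secreted metalloproteinase of the ADAMTS family, were in 1 cell, and its ratio of 3.58 became -2.83 without the top cells. That same cell held 143 of the 202 Doxo UMIs of C1qtnf7, a complement-related adipokine, whose ratio of 1.84 became 0.46. For S100g, a calcium-binding protein, 11 cells of each library had a UMI, 66 of the 135 Doxo UMIs were in 1 cell, and the ratio was 3.08 with it and 2.65 without.

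A further Doxo member carried transcripts of several joint and bone genes, which were named after their values were seen. It held 1338 of 1448 Doxo UMIs of osteopontin (Spp1), 1208 of 1791 of Ecrg4 and 390 of 608 of chondroadherin (Chad). All 3 genes of the rule were above 0 in it, along with 2 of the bone and cartilage fibroblast set and 2 of the chondrocyte set. The ratios without the top cells were -0.30 for Spp1 (3.15 with them), -0.08 for Ecrg4 (1.35) and 0.50 for Chad (1.59).

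**Figure D5:**
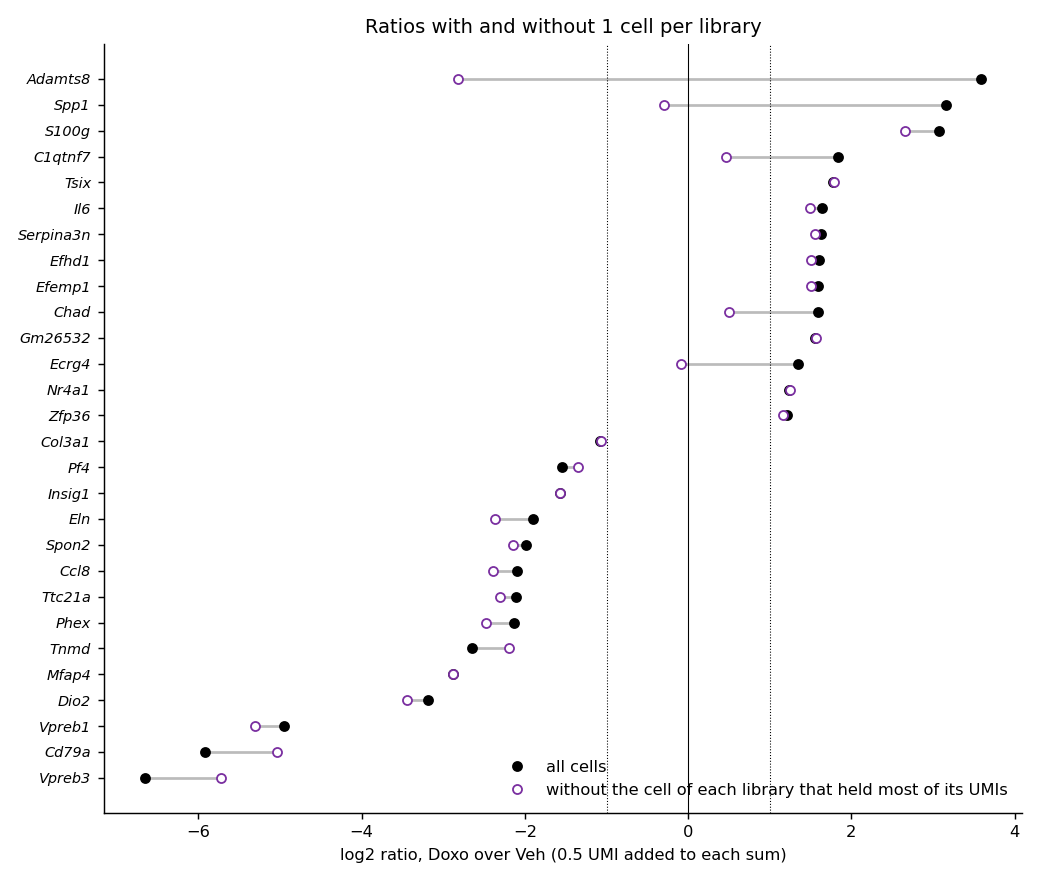
Log2 ratio of Doxo to Veh (horizontal) of 28 genes (rows) over all members (filled circles) and without the cell of each library that held most UMIs of the gene (open circles), with dotted lines at 2-fold. The ratio of Adamts8 went from 3.58 to -2.83 and that of Spp1 from 3.15 to -0.30, while Col3a1, Il6, Efemp1 and Nr4a1 hardly moved.

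At the low end, 3 genes of B-cell precursors came first. Vpreb3 had 120 UMIs in Veh and 0 in Doxo, at least 16.7-fold lower by a floor of 3 UMIs over the class, and Cd79a had 72 and 0, at least 10.0-fold lower. Vpreb1 had 111 and 1. The same 2 Veh members held 88.3% of the Vpreb3, 87.4% of the Vpreb1 and 90.3% of the Cd79a UMIs. The haemoglobin gene Hbb-bs had 224 UMIs in Veh and 0 in Doxo, and UMIs of 6 erythroid genes were spread over 223 Veh and 9 Doxo members. Gm42418, which overlaps ribosomal RNA sequence, had 26567 and 4213 UMIs (-1.39) and was lower in all 4 other classes compared, at -1.27 in bone and cartilage fibroblast-like, -1.23 in CAR-like, -2.46 in osteoblast-like and -1.35 in chondrocyte-like cells. The part of such transcripts from outside the cells in the ratios of other genes was not tested.

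Genes of mesenchymal cells followed. Dio2, a deiodinase that activates thyroid hormone, had 76 UMIs in Veh and 3 in Doxo (ratio -3.19, interval -5.71 to -1.80). Tnmd, the tendon membrane protein tenomodulin, had 67 and 4 (-2.64), with 58.2% of the Veh UMIs in 2 cells, and was 1.55 in members without a second set. Phex, an endopeptidase of phosphate balance, had 110 and 10 (-2.13, -3.30 to -1.26). Spon2, a secreted matrix protein, had 262 and 27 (-1.99, -2.65 to -1.44), with ratios of -1.22 in bone and cartilage fibroblast-like cells and 0.41 in CAR-like cells. Mfap4, Ccl8 and Ttc21a (46 and 4 UMIs, -2.11) complete the 10.

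Of 24 listed genes of lipid handling 10 were higher and 14 lower, with a median of -0.14, and 2 were lower by 2-fold or more, both of sterol metabolism. Insig1, which holds back the sterol sensor SCAP, had 210 UMIs in Veh and 29 in Doxo (ratio -1.57, interval -2.21 to -1.03, and -0.72 with the cluster). Sqle, squalene epoxidase, had 66 and 11 (-1.27). For Hmgcs1 (-0.31), an enzyme near the head of the pathway, the interval included 0. Outside the list, 3 genes of the same pathway were picked because they were low, so their ratios carry no weight as a group. Idi1 had 160 and 21 UMIs (-1.64), Fdps 209 and 36 (-1.26) and Fdft1 53 and 7 (-1.57). In bone and cartilage fibroblast-like cells the ratios of these 6 genes ran from -0.70 (Fdft1) to -0.30 (Insig1), and in CAR-like cells from -1.10 (Sqle) to -0.18 (Insig1).

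The members fell into 3 sub-clusters when they were clustered by themselves. The sub-clusters are numbered by size, and the genes that lead them are a description, since the clustering used them. Their sizes are not compared between libraries, as genes that separate them differed between the libraries.

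Sub-cluster 1 held 155 Veh and 67 Doxo cells. Its leading genes were Txnip, an inhibitor of thioredoxin and glucose uptake, Tmem119, the transcription factor genes Osr1 and Snai2, and Scg3, with Med19, Pofut1, Irak1bp1 and Ccn5. Its ratios to the other members were small, the highest being 1.58 on the log2 scale for Txnip. Scg3 had a UMI in 39.2% of the cells of sub-cluster 1 and in 39.8% of the other members. It was found most often in sub-cluster 3, in 67.7% of Veh and 69.2% of Doxo cells. Sub-cluster 2 held 92 and 52 cells and was led by Clu, Plau (urokinase), Cytl1, Chad, Cxcl1, Noct, Trib1, Spp1, Csrnp1 and the hyaluronan synthase gene Has1. The place of Spp1 rested on 1 Doxo cell, which held 1338 of the 1394 Doxo UMIs in sub-cluster 2. In Veh, Spp1 had 103 CPM in sub-cluster 2 and 184 CPM in sub-cluster 1. Immediate early genes took a median of 2.57% of UMIs in the Veh cells of sub-cluster 2 and 3.54% in its Doxo cells, against 0.587 and 0.960% in sub-cluster 1.

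Sub-cluster 3 held 31 and 26 cells and stood further apart. It was led by Serpinb7 (log2 ratio to the other members 6.03), Pou2f2, Stmn4, Gm15675, the neuronal ubiquitin hydrolase gene Uchl1, Wnt10b, Slurp1, Cd55, Wnt2 and Car8. Genes of the Pi16 programme took a median of 1.10% of UMIs in its Veh cells and 1.24% in its Doxo cells, against 0.480 and 0.480% in sub-cluster 1. Apod was nearly missing from it, at 24.4 and 34.2 CPM, against 1256 and 1694 CPM in sub-cluster 1 and 1198 and 2034 CPM in sub-cluster 2. At least 2 genes of another set were above 0 in 9.68% of its Veh and 15.4% of its Doxo cells, against 40.6 and 28.4% in sub-cluster 1 and 46.7 and 42.3% in sub-cluster 2.

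Within sub-clusters the difference in Col3a1 was present each time, with log2 ratios of -1.18, -0.77 and -1.02 in sub-clusters 1 to 3. Clec3b, which the rule read, had ratios of -0.86, -1.09 and -0.37, which describe chosen cells. The median of the immediate early list was 0.66 in sub-cluster 1, 0.47 in sub-cluster 2 and 0.14 in sub-cluster 3. The collagen list stood at -0.37, -0.36 and -0.66. Other lists were less even, with medians of 0.95, 0.08 and 0.27 for the clock list, 0.47, 0.10 and 0.06 for the glucocorticoid list and, as given above, 0.04, -0.36 and 0.17 for the Pi16 list.

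For some genes the ratio differed between sub-clusters. Efemp1 had 195 CPM in Veh and 669 CPM in Doxo in sub-cluster 3 (1.77, interval 1.37 to 2.19), and its ratio was 1.11 in sub-cluster 1 and -0.62 in sub-cluster 2. Efhd1 had 84.0 and 293 CPM there (1.79, 1.18 to 2.45). Pi16 had 39 and 84 UMIs in sub-cluster 3 (1.58), but 81 and 10 in sub-cluster 1 (-1.28) and 54 and 3 in sub-cluster 2 (-2.84). Of the 84 Doxo UMIs in sub-cluster 3, 31 were in 1 cell and 30 in another, so its ratio there rested largely on 2 cells. Of the Il6 UMIs, 73 in Veh and 87 in Doxo were in sub-cluster 2 (1.38), 17 and 31 in sub-cluster 1 (2.52) and 1 and 0 in sub-cluster 3. Those of sub-cluster 1 lay in 5.16% of its Veh and 5.97% of its Doxo cells. Cxcl1 was higher in sub-cluster 1, at 74.1 and 334 CPM (2.17, 1.81 to 2.54), and level in sub-cluster 2, at 2095 and 2096 CPM. In sub-cluster 1 fewer cells had a UMI of Cxcl1 in Doxo (14.9%) than in Veh (20%), so the higher level lay in a small part of its cells. The differences between sub-clusters were not tested.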

How the data were processed

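Single cells of mouse bone were measured by 10x Genomics 3′ v3 RNA sequencing in 2 libraries. The authors demultiplexed, aligned to GRCm38 (mm10) and counted the reads with Cell Ranger, and the submitters' processing notes also name Partek. Versions were not given in the sources used here. The deposited values were on a log2 scale. As read from the values, the authors scaled the UMIs of each cell to 1000000, took logarithms, scaled the result to the same sum again and took log2 of the value plus 1. These steps were undone cell by cell to give back UMIs, and 99.9% of values in each library came out whole (within 0.05 UMI, for values up to 50 UMIs). A further 20 symbols with values that were not whole were not named. The deposited cells held at least 1506 UMIs each, and no other filter or doublet caller was applied here. Members with 2 genes of another set were counted instead, and results were repeated without them.

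Members were chosen by the rule on the deposited log2 values. Their UMIs were summed per library and compared as log2 ratios of CPM with exact intervals. With 1 library per condition there was no test. A gene counted as called when it had at least 50 UMIs and was 2-fold or more apart. Lists used genes of at least 10 UMIs. The calculation was tested on simulated data with known ratios.

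Sub-clusters came from the members alone, with 2000 variable genes, 20 principal components, 15 neighbours and the Leiden method at a resolution of 0.3 (scanpy 1.11.5, igraph 0.11.9, Python 3.11.15, numpy 2.4.6, scipy 1.17.1, pandas 2.3.3, matplotlib 3.10.9). Named genes were the 7 listed markers, the 10 genes with the highest and the 10 with the lowest ratio among those of at least 50 UMIs whose CPM reached 0.5 times that of all other cells, the 15 genes most above other cells, in each list the most abundant genes and those with the highest and the lowest ratio, the 10 leading genes of each sub-cluster, and Cdkn2a, Cdkn1a, Mki67, Tnfsf11 and Tnfrsf11b. Members and lists were chosen with earlier results of these data known, and further genes, among them Spp1, Ecrg4, Chad, Hbb-bs, Gm42418, Idi1, Fdps, Fdft1 and other members of the lists, were named after their values were seen. A few genes that this rule names are not reported here. Alternatives changed the membership, the filter, the depth, the weighting of cells, the amount added and the centring.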

Additional observations from a re-analysis of the deposited data

How the results depend on the processing

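The share of members depended on the rule. It was 7.92% in Veh and 3.66% in Doxo with all 3 genes above 0, 14.1% and 9.85% when a cluster replaced the rule, 7.95% and 3.96% with each cell thinned to 2000 UMIs, and 6.79% and 4.02% for members with fewer than 2 genes of every other set. The counts of genes higher and lower by 2-fold were 29 and 29 with thinned cells, 219 and 357 with a minimum of 20 UMIs, 20 and 15 with a minimum of 200 and 1652 and 1810 with none. Clustered alone, 67.6% of Veh members were in sub-cluster 1 and 23.7% in sub-cluster 2. Of 168 named genes with at least 50 UMIs, 40 were past 2-fold, and 21 of these fell under 2-fold or turned with at least 1 alternative. Of the 81 under 2-fold with an interval that left out 0, 25 turned with at least 1 alternative. Over all 168 the sign changed most often with the cluster (34 genes), with all 3 genes above 0 (23) and without members of a second set (23). Ratios past 2-fold that turned were the 6 of Adamts8 (-3.64 with all 3 genes above 0, -2.87 with a margin of at least 1, -2.82 without the top 5% of cells by UMIs, -2.85 without members of a second set and -2.83 without its top cells), Spp1 (-0.46 with the cluster, -0.25 without the top 5%, -0.32 without members of a second set and -0.30 without its top cells), Chad (-0.026), Angptl7 (0.58) and Cxcl10 (2.22) with the cluster, and Tnmd (1.55) without members of a second set. The median of the S-phase list turned to 0.017 with a minimum of 50 UMIs. The cause of these shifts was not tested. The medians of the immediate early list (0.43 to 0.59), the clock list (0.40 to 0.64), the collagens (-0.62 to -0.29), the small leucine-rich proteoglycans (-0.52 to -0.24) and the heat shock list (-0.43 to -0.21) kept their sign under all 12 alternatives. Those of the Pi16 list (0.06 to 0.40) and the glucocorticoid list (0.03 to 0.41) came near 0, and that of interferon-stimulated genes ran from -0.26 to 0.21. Leaving out the top cell of each gene and members with a second set was added after seeing the data. No paired analysis was possible because each condition had 1 library, and leaving out a replicate was not possible for the same reason.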

Other observations

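Signals that fibroblasts send to vessels and bone differed gene by gene rather than as lists. Of 10 genes of the IGF system 6 were higher in Doxo, with a median of 0.10, yet both ligands had lower values in Doxo, Igf1 with 302 CPM in Veh and 212 CPM in Doxo (log2 ratio -0.51, interval -0.72 to -0.31) and Igf2 with 90 and 18 UMIs (-1.03, -1.88 to -0.32). The ratio of Igf2 was -0.70 without members that carry a second set and -0.03 with each cell thinned to 2000 UMIs. Igfbp7, a binding protein, had 2792 and 1659 CPM (-0.75), whereas the receptor gene Igf1r had 90.6 and 119 CPM (0.40, 0.09 to 0.70). Of 25 genes of TGF-beta and BMP signalling 16 were higher, with a median of 0.10. Acvr2a, an activin receptor gene, had 143 and 26 UMIs (-1.17, -1.86 to -0.59, and -0.98 without members that carry a second set). The BMP antagonist Chrdl1 had 47.9 and 71.3 CPM (0.58).

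Among 29 vascular and guidance genes 13 were higher, with a median of -0.02. Angptl1, an angiopoietin-like secreted protein, had 328 CPM in Veh and 213 CPM in Doxo (-0.62, interval -0.83 to -0.42), and Slit3 had 62.9 and 88.9 CPM (0.50, 0.14 to 0.85). Of 18 WNT ligands and inhibitors 11 were higher (median 0.10), with Dkk2 at 102 and 144 CPM (0.50, 0.22 to 0.78) and Dkk3 at 158 and 109 CPM (-0.53). Wif1 had a ratio of 0.93, but 62 of its 80 Doxo UMIs were in 1 cell and the ratio was -0.80 without the top cells. Of 13 iron genes 8 were higher (median 0.08), among them ferritin heavy chain Fth1, with 7285 and 9586 CPM (0.40, 0.36 to 0.43). The Notch ligand Jag1, one of 13 niche genes (7 higher, median 0.06), had 35.7 and 62.1 CPM (0.80, 0.35 to 1.25). Ribosomal protein genes were higher in 40 of 50 cases by a small amount (median 0.07), and 9 of 13 mitochondrial transcripts were higher (0.20).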
